A study of Homo sapiens with 6 samples.

Results

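The transcripts of 9 genes of the death receptor pathway were followed in 2 castration-resistant prostate cancer cell lines treated with HSP70 inhibitors. The 9 genes were taken by name, as listed members mapped from the Ensembl identifiers of the deposited tables, and are 9 of 60658 identifiers. They are the TRAIL receptors TNFRSF10A and TNFRSF10B, the decoy receptor TNFRSF10D, the Fas receptor FAS, the initiator caspase CASP8, its regulator CFLAR, and the inhibitor of apoptosis (IAP) genes XIAP, BIRC2 and BIRC3. C4-2B MDVR, derived from the LNCaP subline C4-2B and resistant to enzalutamide, was maintained in medium with 20 µM enzalutamide, and CWR22Rv1 without it. Whether enzalutamide was present during the treatments is not stated in the sources used here. Each line was treated for 48 h with DMSO vehicle, 10 µM apoptozole (APO) or 10 µM VER155008 (VER), and RNA from individual cultures gave 1 library for each of the 6 conditions. The source labels of the C4-2B MDVR libraries name LNCaP-C4-2B cells and call the cell type parental, while their titles name C4-2B MDVR, which is used here. With 1 library per condition there is no replicate check, no test between conditions can be made, and each difference is between single libraries.

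In the death receptor pathway, a ligand such as TRAIL or Fas ligand binds its receptor at the cell surface, and the receptor gathers the adaptor FADD and CASP8. CASP8 is activated in that complex and cleaves the effector caspases, which dismantle the cell. CFLAR resembles CASP8 but lacks its protease activity and competes for the same complex. Decoy receptors bind TRAIL without passing on the death signal. XIAP binds active caspases directly, while BIRC2 and BIRC3 are ubiquitin ligases that act in the complexes of the TNF receptors. Prostate cancer lines are often studied for their sensitivity to TRAIL.

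The promoters of BIRC3 and BIRC2 are shown because these neighbouring, related genes differed widely in level, and because their windows held different motifs. The bases are RefSeq's, build GRCh38.p14, plus strand, at chr11:102317234-102317449 for BIRC3 and chr11:102347124-102347214 for BIRC2. Capitals mark the matches to the NF-kB motif (kB) in BIRC3 and to the cAMP response element (CRE, TGACGTCA) in BIRC2.
BIRC3: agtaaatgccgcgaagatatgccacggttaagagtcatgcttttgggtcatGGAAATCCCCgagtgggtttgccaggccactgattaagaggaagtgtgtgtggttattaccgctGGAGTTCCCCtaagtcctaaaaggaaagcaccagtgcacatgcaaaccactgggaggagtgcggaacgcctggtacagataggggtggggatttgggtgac
BIRC2: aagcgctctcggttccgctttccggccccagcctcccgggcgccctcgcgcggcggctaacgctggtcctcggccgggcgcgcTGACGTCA
The BIRC3 stretch holds 2 kB matches before the annotated start, and the CRE of BIRC2 spans the annotated start at 102347211. RefSeq windows of the 250 bases before a start were searched on both strands for the CRE, an ATF4 element (TGATGNAAT), the kB motif and a heat shock element core (TTCNNGAA). Windows were found for 6 of the 9 members, 16 windows in all. The CRE was in 1 of the 16 windows, that of BIRC2, and in 1.65% of all 35116 windows. The kB motif was in 3 windows, 1 each of BIRC3, CFLAR and FAS, against 5.21% of all windows. The heat shock element core was in 1 window, of CFLAR, against 6.62%, and the ATF4 element was in 0 of the 16, against 0.888%. Matches at different positions did not overlap, and the CRE of BIRC2 and the heat shock element core of CFLAR each matched on both strands at the same position. Such matches describe letters in the windows and not sites in use.

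Values are FPKM, fragment counts scaled for transcript length and library size, as deposited after normalization between libraries. The libraries summed to between 647172 and 747932 FPKM and held 17603 to 19376 genes above 0.1 FPKM. Read totals are unknown. Relative depth, read from the spacing of low FPKM values, was 1.15 to 1.63 in the other 5 libraries with the C4-2B MDVR DMSO library taken as 1. Transcripts of the mitochondrial genome took 10.45% of the summed FPKM in the CWR22Rv1 APO library and 25.7% in each of the other CWR22Rv1 libraries, and 14.8% to 16.4% in C4-2B MDVR. All 8 markers of prostate luminal epithelium were above 1 FPKM in every library, and their summed level was highest with DMSO in both lines, at 1417 FPKM in C4-2B MDVR and 991.8 FPKM in CWR22Rv1, against 846.8 to 965.8 FPKM with inhibitor. Of these markers, 5 of 8 fell in each contrast with DMSO, except 6 with VER in CWR22Rv1. Of 9 markers of other cell types, PECAM1, KRT5 and TP63 were listed at 0 in all 6 libraries and the summed level was 4.27 to 14.8 FPKM, most of it COL1A1 at 3.32 to 10.8 FPKM. Of 5 such markers compared in C4-2B MDVR, 3 rose and 1 fell with APO and 2 rose with VER, and of 3 in CWR22Rv1, 2 rose with APO and 1 fell with VER. In C4-2B MDVR, CD3E (0.0524, 0.101 and 0.0571 FPKM with DMSO, APO and VER) and COL3A1 (0.0867, 0.0514 and 0.151) were near 0. Each passed the cutoff of 0.1 FPKM only through its highest library, so nothing is read from their changes. Of all genes, 37.7% rose and 35.4% fell with APO and 35.6% and 34.9% with VER in C4-2B MDVR. The shares were 35.6% and 39.2%, then 32.1% and 32.3%, in CWR22Rv1. The part of the depth, mitochondrial and marker differences in the values below was not tested. Fewer cells that express a gene and less RNA per cell cannot be told apart in such libraries.

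The members sit in 3 gene clusters and at 2 single loci, given here on GRCh38 with GENCODE 29. TNFRSF10B (ENSG00000120889, chromosome 8 from 23020133 to 23069179), TNFRSF10D (ENSG00000173530, 23135588 to 23164030) and TNFRSF10A (ENSG00000104689, 23190452 to 23225126) lie on the minus strand, with the decoy receptor gene TNFRSF10C between TNFRSF10B and TNFRSF10D. CFLAR (ENSG00000003402, chromosome 2 from 201116104 to 201176687) and CASP8 (ENSG00000064012, 201233443 to 201287711) lie on the plus strand on either side of CASP10. BIRC3 (ENSG00000023445, chromosome 11 from 102317450 to 102339403) ends 7807 bases before BIRC2 (ENSG00000110330, 102347211 to 102378670), on the same strand. FAS (ENSG00000026103) runs from 88990582 to 89015785 on chromosome 10 and XIAP (ENSG00000101966) from 123859724 to 123913979 on chromosome X, both on the plus strand.

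Fold changes are differences of log2(FPKM + 0.1), which understate the change of low genes. They were taken for genes above 0.1 FPKM in 1 or more of the 3 libraries of a line, 20122 for C4-2B MDVR and 21608 for CWR22Rv1. All 9 members were above it in all 6 libraries. A gene is said to have risen or fallen where it passed 1.2-fold, the threshold of the study, a log2 change of 0.26. Fold changes of more than 2-fold were counted as well.

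TNFRSF10B, a TRAIL receptor that signals death, was the most abundant member in all 6 libraries. It is a textbook target of the stress factor DDIT3 (CHOP) and of p53, and rose in all 4 contrasts with DMSO. In C4-2B MDVR it was at 54.4 FPKM with DMSO, 155.6 with APO and 119.6 with VER. CWR22Rv1 cells had 44.7, 165.2 and 114.9 FPKM in the same order. The 4 inhibitor libraries thus all lay above both DMSO libraries, and APO lay above VER in each line. The log2 changes were 1.51 with APO and 1.13 after VER in C4-2B MDVR, and 1.88 and 1.36 in CWR22Rv1. Of all genes compared, 7.99% had a higher fold change with APO and 12.0% after VER in C4-2B MDVR, and 4.33% and 6.61% in CWR22Rv1.

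TNFRSF10A, the other death-signalling TRAIL receptor, fell with APO in both lines while TNFRSF10B rose. It was at 20.8 FPKM with DMSO, 11.2 with APO and 18.0 after VER in C4-2B MDVR, log2 changes of -0.88 and -0.21. CWR22Rv1 cells had 9.10, 6.57 and 14.2 FPKM, changes of -0.46 and 0.63. APO gave the lowest value of each line, and VER gave the highest value in CWR22Rv1 but not in C4-2B MDVR, where its change did not pass 1.2-fold. The transcript TNFRSF10A-DT runs on the opposite strand and shares 266 exonic bases with TNFRSF10A. It was at 13.4, 11.95 and 13.5 FPKM in C4-2B MDVR and 5.90, 4.16 and 4.59 FPKM in CWR22Rv1, and without the strand setting of the counting, reads of the shared bases cannot be told apart.

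TNFRSF10D, the decoy with a truncated death domain, was at 21.7 FPKM with DMSO, 18.9 with APO and 30.6 after VER in C4-2B MDVR. In CWR22Rv1 the values were 11.3, 5.335 and 14.9 FPKM. APO gave the lowest and VER the highest level in both lines. The log2 changes with VER were 0.50 in C4-2B MDVR and 0.39 in CWR22Rv1, past 1.2-fold, and with APO -0.19, within it, and -1.07. The summed level of both death-signalling receptors over that of TNFRSF10D, a ratio within a library that scaling between libraries does not move, went from 3.47 with DMSO to 8.81 with APO and 4.49 after VER in C4-2B MDVR. It went from 4.75 to 32.2 and 8.65 in CWR22Rv1. The ratio of TNFRSF10B to TNFRSF10A was also highest with APO, at 2.62, 13.9 and 6.65 in C4-2B MDVR and 4.92, 25.2 and 8.11 in CWR22Rv1 in the order DMSO, APO and VER. The receptors of this family resemble each other in sequence, and how reads that match more than 1 of them were assigned is not given in the sources used here.

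**Figure D1:**
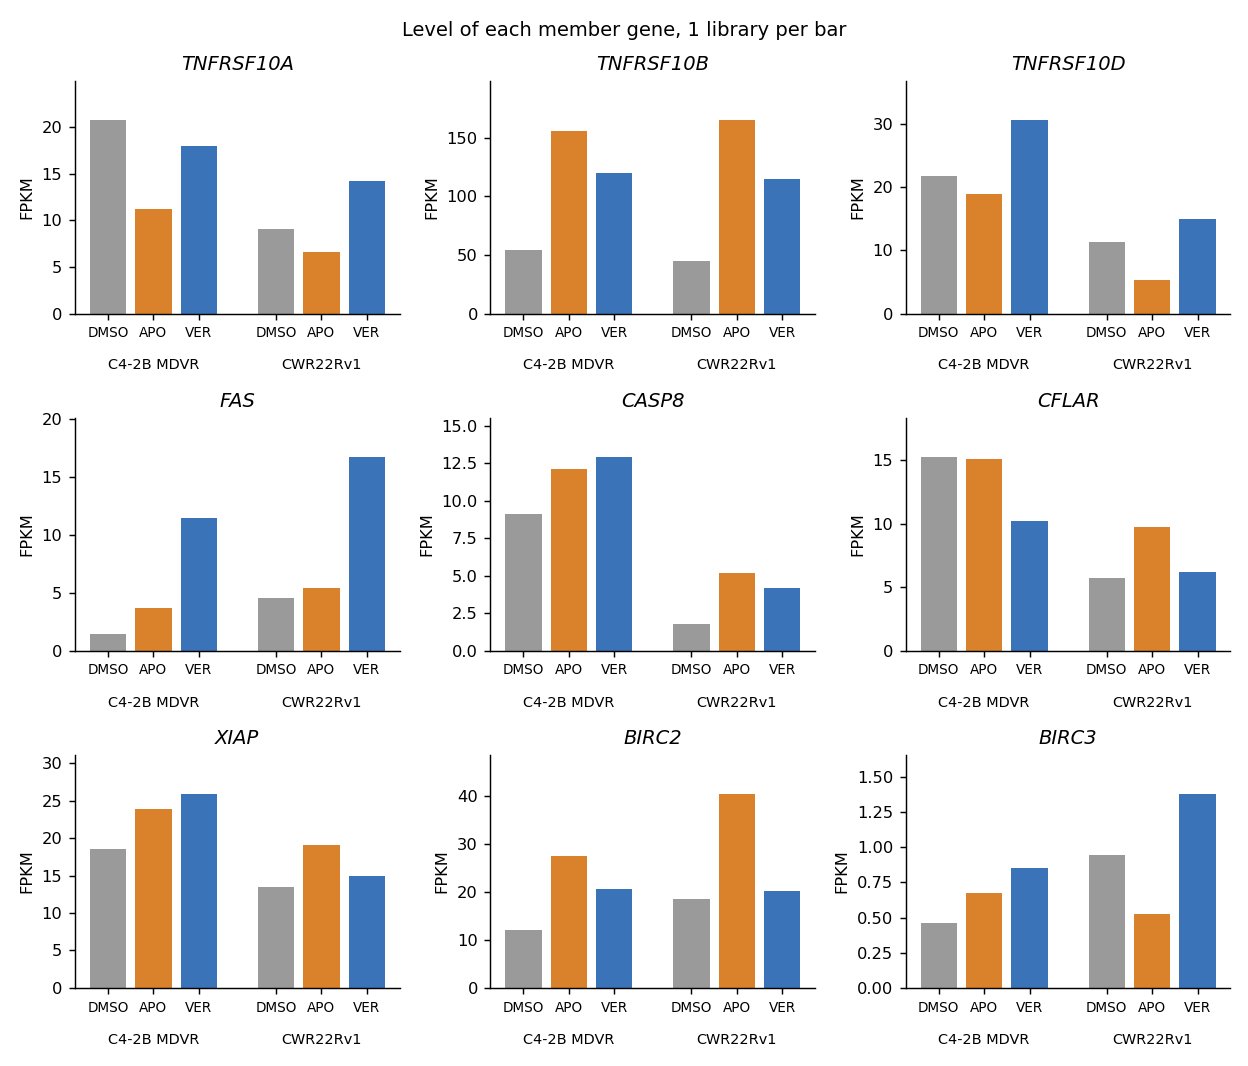
FPKM of each of the 9 members (1 panel per gene, linear axis from 0) in the 6 libraries, with DMSO in grey, APO in orange and VER in blue and no error bars because each bar is a single library. The axes differ between panels, from 165.2 FPKM at the highest TNFRSF10B bar to 1.38 FPKM at the highest BIRC3 bar, and the VER bars of FAS (11.5 and 16.8 FPKM) stand above the other bars of their line.

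FAS, the receptor of Fas ligand and a textbook p53 target, had the widest range of the members, 11.8-fold between its lowest and highest library. In C4-2B MDVR it was at 1.42 FPKM with DMSO, 3.67 with APO and 11.5 with VER, log2 changes of 1.31 and 2.93. In CWR22Rv1 it was at 4.57, 5.47 and 16.8 FPKM, changes of 0.25, just within 1.2-fold, and 1.85. VER gave the highest level in both lines. With VER, only 1.37% of genes compared in C4-2B MDVR and 3.61% in CWR22Rv1 had a higher fold change. FAS shares 380 exonic bases with ACTA2, the smooth muscle actin gene on the opposite strand, 12.8% of the exonic bases of ACTA2. ACTA2 was at 0.646, 1.06 and 2.98 FPKM in C4-2B MDVR and 2.30, 2.97 and 7.03 FPKM in CWR22Rv1, the same order of libraries within each line as FAS. The same limit on reads of shared bases holds here. With all libraries set to 1 sum (TPM), FAS passed 1.2-fold with APO in CWR22Rv1, with a log2 change of 0.37.

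Known regulators and outputs were read beside these receptors, with no test of a link. Of 8 such genes, 4 rose and 2 fell with each inhibitor in C4-2B MDVR, and 5 rose and 1 fell with APO and 6 rose and 2 fell with VER in CWR22Rv1. Of all genes compared, 37.7% rose and 35.4% fell with APO and 35.6% and 34.9% with VER in C4-2B MDVR. In CWR22Rv1 the shares were 35.6% and 39.2% with APO and 32.1% and 32.3% with VER. The genes were picked for their known roles, and nothing is read from their counts. DDIT3 was at 18.5 FPKM with DMSO, 436.9 with APO and 185.2 after VER in C4-2B MDVR, and at 49.3, 752.7 and 125.1 FPKM in CWR22Rv1. Like TNFRSF10B, it was highest with APO and lowest with DMSO in both lines. The p53 target CDKN1A, a cell cycle inhibitor, was at 54.5, 231.9 and 855.2 FPKM in C4-2B MDVR and 41.3, 172.2 and 359 FPKM in CWR22Rv1. MDM2, the p53 ubiquitin ligase and also a p53 target, was at 51.3, 51.6 and 182.3 FPKM, and at 54.0, 83.4 and 149.2 FPKM. Like FAS, both were highest with VER in each line. TNFRSF10B, also a textbook p53 target, differed from them, being higher with APO than with VER in each line. FAS differed from DDIT3, being higher with VER than with APO in each line.

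CASP8, which starts the caspase cascade at the receptor complex, rose in all 4 contrasts with DMSO, by a larger log2 change in CWR22Rv1. In C4-2B MDVR it was at 9.15 FPKM with DMSO, 12.1 with APO and 12.9 with VER, log2 changes of 0.40 and 0.49. The CWR22Rv1 libraries held 1.76, 5.21 and 4.21 FPKM, changes of 1.52 and 1.22. Every CWR22Rv1 value lay below every C4-2B MDVR value, and the lines were 4.98-fold apart with DMSO. The change with APO in C4-2B MDVR was 0.25, within 1.2-fold, after all libraries were set to 1 sum of FPKM (TPM). The difference between the changes of the lines, CWR22Rv1 minus C4-2B MDVR, was 1.11 with APO and 0.72 with VER on the log2 scale and could not be tested.

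CFLAR, the inhibitor-like partner of CASP8 from the same cluster, did not share this pattern. It was at 15.2 FPKM with DMSO, 15.0 with APO and 10.2 after VER in C4-2B MDVR, log2 changes of -0.02 and -0.57. The CWR22Rv1 libraries held 5.68, 9.72 and 6.23 FPKM, changes of 0.76 and 0.13. It thus fell with VER in C4-2B MDVR and rose with APO in CWR22Rv1, while the other 2 changes were within 1.2-fold. A transcript of 445 bases on the same strand, ENSG00000234431, lies wholly within CFLAR exons. It was listed at 2.39 FPKM in the C4-2B MDVR DMSO library and at no more than 0.000259 FPKM in any other, and its part in the CFLAR values was not tested.

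The ratio of CFLAR to CASP8 was highest with DMSO in each line. It was 1.67 with DMSO, 1.24 with APO and 0.792 after VER in C4-2B MDVR. The CWR22Rv1 ratios were 3.24, 1.87 and 1.48. With VER in C4-2B MDVR, the CASP8 transcript was thus more abundant per length than that of CFLAR, and in the other 5 libraries less abundant.

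**Figure D2:**
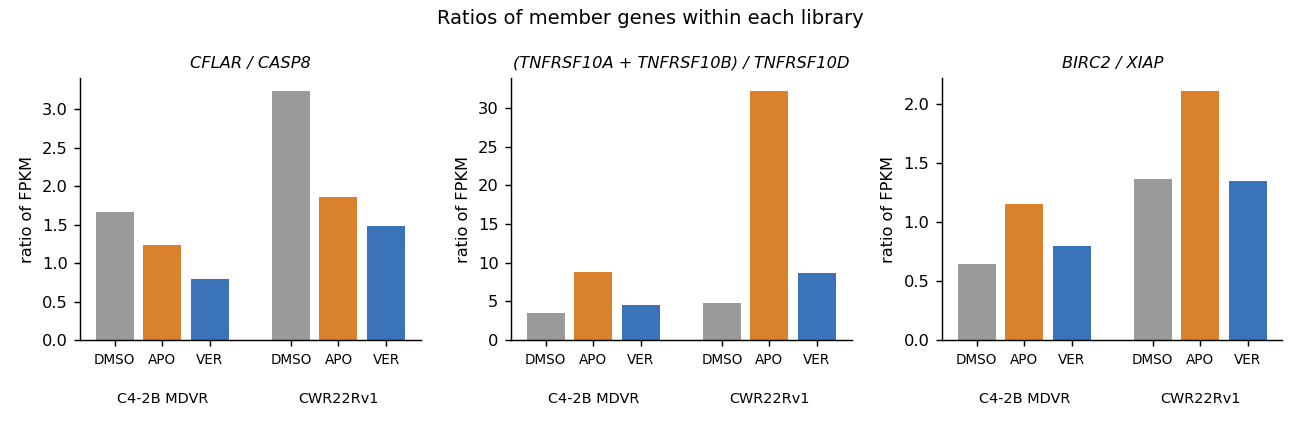
Ratios of FPKM between members within each of the 6 libraries (linear axes from 0), 1 bar per library and no error bars, with DMSO in grey, APO in orange and VER in blue. The ratio of TNFRSF10A + TNFRSF10B to TNFRSF10D is highest with APO in both lines (8.81 and 32.2), that of CFLAR to CASP8 with DMSO (1.67 and 3.24), and that of BIRC2 to XIAP with APO (1.15 and 2.11).

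XIAP, the direct caspase inhibitor, was the steadiest of the 9, with 1.92-fold between its lowest and highest library. In CWR22Rv1 it was at 13.5 FPKM with DMSO, 19.15 with APO and 15.0 with VER, log2 changes of 0.50 and 0.15. In C4-2B MDVR it was at 18.6, 23.9 and 25.9 FPKM, and the change with APO, 0.36, was 0.21 and within 1.2-fold after rescaling to the same sum. DMSO gave the lowest value of each line.

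BIRC2, a ubiquitin ligase of the TNF receptor complexes, rose more than 2-fold with APO in both lines. It was at 12.0 FPKM with DMSO, 27.4 with APO and 20.5 after VER in C4-2B MDVR, log2 changes of 1.19 and 0.77. CWR22Rv1 libraries held 18.4, 40.3 and 20.2 FPKM, changes of 1.13 and 0.13. APO gave the highest value of each line, and the VER value of CWR22Rv1 lay near its DMSO value. Its ratio to XIAP went from 0.645 with DMSO to 1.15 with APO and 0.793 after VER in C4-2B MDVR, and from 1.36 to 2.11 and 1.35 in CWR22Rv1.

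BIRC3, its relative and a textbook NF-kB target, was the least abundant member in all 6 libraries and moved in opposite directions with APO. It was at 0.461 FPKM with DMSO, 0.674 with APO and 0.850 after VER in C4-2B MDVR, log2 changes of 0.46 and 0.76. In CWR22Rv1 it was at 0.946, 0.526 and 1.38 FPKM, changes of -0.74 and 0.50. VER gave the highest value of each line, and APO lay above DMSO in C4-2B MDVR and below it in CWR22Rv1. BIRC3 was at 0.0131 to 0.0683 of BIRC2 over the 6 libraries, and how reads that match both of these related genes were assigned is not given in the sources used here. Among NF-kB outputs, NFKBIA, the inhibitor of NF-kB, was at 66.9, 34.95 and 44.2 FPKM in C4-2B MDVR and 22.5, 22.6 and 16.7 FPKM in CWR22Rv1. TNFAIP3, which ends NF-kB signalling, was at 0.873, 0.347 and 0.493 FPKM in C4-2B MDVR and 0.3405, 0.308 and 0.475 FPKM in CWR22Rv1. It followed the order of BIRC3 in CWR22Rv1 but not in C4-2B MDVR, and NFKBIA followed it in neither line. RELB, a subunit of NF-kB, rose with APO in both lines and with VER in CWR22Rv1, with changes of 0.67, 2.14 and 1.80, and was at -0.03 with VER in C4-2B MDVR. NFKB2, its partner, fell in CWR22Rv1, with changes of -0.60 for APO and -0.39 for VER, and was within 1.2-fold in C4-2B MDVR, at 0.03 and -0.19. A link of these genes to BIRC3 was not tested.

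**Figure D3:**
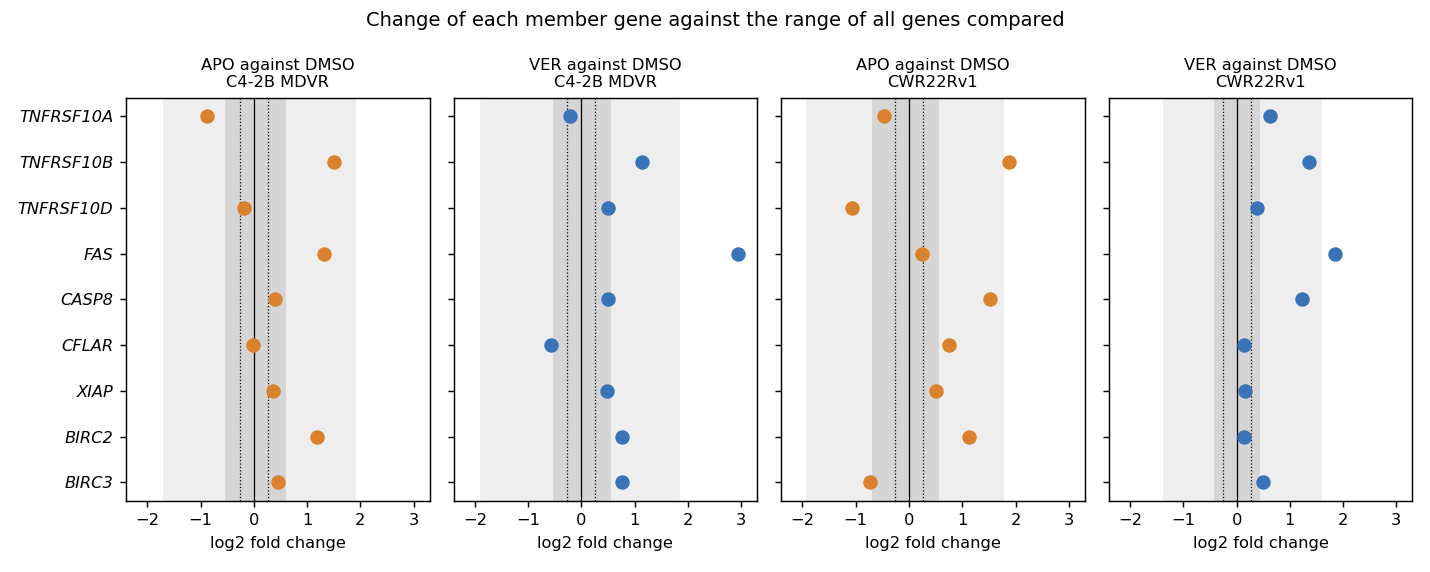
Log2 fold change of each member in the 4 contrasts with DMSO, 1 panel per contrast and 1 point per gene (APO orange, VER blue), with dotted lines at 1.2-fold in either direction and bands from the 25th to the 75th (dark) and the 5th to the 95th (light) percentile of all genes compared. TNFRSF10B and CASP8 lie above the 1.2-fold line in all 4 contrasts, and FAS with VER in C4-2B MDVR lies farthest out, at 2.93.

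Counted together with APO in C4-2B MDVR, 6 of the 9 members rose, where 37.7% of all genes compared did. TNFRSF10A, the only member of 9 to fall, stood beside 35.4% of all genes. More than 2-fold, 3 members rose (TNFRSF10B, FAS and BIRC2), against 15.4% of all genes, and 0 fell, against 13.3%. Rescaled to the same sum, 4 members rose, against 32.1% of all genes, and 2 fell, against 42.3%.

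With VER in C4-2B MDVR, 7 members rose, against 35.6% of all genes, and only CFLAR fell, against 34.9%. More than 2-fold, TNFRSF10B and FAS rose, 2 of 9 against 14.4% of all genes, and 0 fell, against 13.3%. TNFRSF10A was the only other member, and its change was within 1.2-fold.

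With APO in CWR22Rv1, 5 members rose, against 35.6% of all genes, and TNFRSF10A, TNFRSF10D and BIRC3 fell, 3 of 9 against 39.2%. More than 2-fold, TNFRSF10B, CASP8 and BIRC2 rose, 3 of 9 against 13.8%, and 1 fell, TNFRSF10D, against 16.8%. The share of members that fell was close to that of all genes.

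With VER in CWR22Rv1, 6 members rose, against 32.1% of all genes, and 0 fell, against 32.3%. More than 2-fold, TNFRSF10B, FAS and CASP8 rose, 3 of 9 against 10.8%, and 0 fell, against 8.92%. CFLAR, XIAP and BIRC2 were within 1.2-fold. The members' median log2 change was 0.40 with APO and 0.50 after VER in C4-2B MDVR, and 0.50 with each inhibitor in CWR22Rv1, and the median of all genes lay between -0.01 and 0.00 in the 4 contrasts. The contrasts of a line share its DMSO library, so their counts are not independent.

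Set directly against APO, VER gave more FAS in both lines, by 1.62 in C4-2B MDVR and 1.60 in CWR22Rv1 on the log2 scale, and this comparison does not use the DMSO libraries. In C4-2B MDVR, FAS was the only one of the 9 members more than 2-fold higher with VER, against 8.68% of all genes, and 0 were more than 2-fold lower, against 10.5%. In CWR22Rv1, 4 were more than 2-fold higher, against 15.6% of all genes: TNFRSF10A by 1.10, TNFRSF10D by 1.47, FAS by 1.60 and BIRC3 by 1.24. Again 0 were more than 2-fold lower, against 10.5%, with BIRC2 at the edge, 1.99-fold lower. Rescaled to the same sum, BIRC2 lay past 2-fold, at -1.18, and TNFRSF10A within it, at 0.92. Of all genes, 14.1% were then more than 2-fold higher and 14.0% lower. TNFRSF10B was lower with VER than with APO, at -0.38 in C4-2B MDVR and -0.52 in CWR22Rv1, and so was CFLAR, at -0.55 and -0.63. Both inhibitors were used at the same dose and time, and the intervals of these differences are unknown with single libraries.

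Between the lines under DMSO, 4 of the 9 members differed by more than 2-fold. FAS was 1.62 higher on the log2 scale in CWR22Rv1, 1 of 9 members more than 2-fold higher, against 24.0% of the 23671 genes compared. CASP8 was lower, at -2.32, as were CFLAR at -1.41 and TNFRSF10A at -1.18, 3 of 9 more than 2-fold lower, against 17.1%. TNFRSF10D at -0.93, XIAP at -0.46, TNFRSF10B at -0.28, BIRC2 at 0.61 and BIRC3 at 0.90 were within 2-fold. The order of levels differed too. With DMSO, C4-2B MDVR ran TNFRSF10B, TNFRSF10D, TNFRSF10A, XIAP, CFLAR, BIRC2, CASP8, FAS and BIRC3 from high to low, and CWR22Rv1 ran TNFRSF10B, BIRC2, XIAP, TNFRSF10D, TNFRSF10A, CFLAR, FAS, CASP8 and BIRC3. Which neighbours in these orders differ beyond a spread is unknown with single libraries. The lines differ also in the enzalutamide of the medium they were maintained in, which cannot be told apart from the line.

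Of 46 other genes of the pathway, 35 were compared in each contrast. With APO, 12 rose and 12 fell in C4-2B MDVR, and 11 rose and 12 fell in CWR22Rv1. With VER, 11 rose and 9 fell in C4-2B MDVR, and 9 rose and 11 fell in CWR22Rv1. The median log2 change was 0.08 for APO and 0.00 for VER in C4-2B MDVR, and -0.09 and 0.02 in CWR22Rv1, near those of all genes. These counts and those of the lists below stand beside the shares of all genes past 1.2-fold given above, 37.7% up and 35.4% down for APO and 35.6% and 34.9% for VER in C4-2B MDVR, and 35.6% and 39.2%, then 32.1% and 32.3%, in CWR22Rv1. The lists are short, and nothing is read from their counts.

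The ligands were low. FASLG was listed at 0 in all 6 libraries, and TNFSF10, which encodes TRAIL, was at 0.872 FPKM with DMSO, 0.115 with APO and 0.797 after VER in C4-2B MDVR and at no more than 0.0358 FPKM in CWR22Rv1. Of the other receptors, 3 of 5 compared rose and 1 fell with each inhibitor in C4-2B MDVR, and in CWR22Rv1 2 of 6 rose with each while 2 fell with APO and 1 with VER. TNFRSF1A, the main TNF receptor, rose in all 4 contrasts, from 58.2 FPKM to 117.3 with APO and 86.7 after VER in C4-2B MDVR and from 57.7 to 110.9 and 86.3 FPKM in CWR22Rv1. TNFRSF21, another death receptor, rose in C4-2B MDVR by 1.46 with APO and 0.31 with VER on the log2 scale. It was within 1.2-fold in CWR22Rv1, at 0.07 and 0.15. TNFRSF25 fell with APO in CWR22Rv1, by 1.48, from 19.2 to 6.84 FPKM.

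Among adaptors and complex members, 3 of 12 compared rose and 5 fell with APO in C4-2B MDVR, and 3 of 13 rose and 4 fell in CWR22Rv1. With VER, 3 rose and 4 fell in C4-2B MDVR, and 2 rose and 4 fell in CWR22Rv1. RBCK1, a subunit of the linear ubiquitin ligase that acts at TNF receptors, rose in all 4 contrasts, by 1.55, 1.29, 1.67 and 0.81 on the log2 scale for APO and then VER in C4-2B MDVR, followed by APO and VER in CWR22Rv1. MLKL, the executor of necroptosis, fell in all 4, from 4.06 FPKM to 0.947 and 1.795 in C4-2B MDVR and from 0.878 to 0.0930 and 0.1725 FPKM in CWR22Rv1. TRAF2, which brings BIRC2 and BIRC3 to TNF receptors, also fell in all 4, with changes of -0.94, -1.14, -0.99 and -0.57. RIPK3, the kinase that acts on MLKL, was listed at 0 in all 6 libraries.

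Of the other caspases, 4 of 8 compared rose and 1 fell with APO in C4-2B MDVR, and 5 of 7 rose and 2 fell in CWR22Rv1. With VER, 5 rose and 1 fell in C4-2B MDVR, and 2 rose and 2 fell in CWR22Rv1. CASP5, counted as risen with each inhibitor in C4-2B MDVR, was at 0, 1.02 and 0.313 FPKM with DMSO, APO and VER. CASP10, counted as risen with APO in CWR22Rv1, was at 0.07515, 0.269 and 0.0848 FPKM there. Each passed the filter of 0.1 FPKM only through inhibitor libraries in which it was counted as risen, so nothing is read from these changes. CASP4, an inflammatory caspase, rose in all 4 contrasts, from 4.37 FPKM to 16.7 and 8.85 in C4-2B MDVR and from 0.455 to 2.36 and 0.957 FPKM in CWR22Rv1. CASP2 fell in all 4, with changes of -0.79, -0.43, -0.93 and -0.46. CASP6, an effector caspase, rose by 0.94 and 0.96 in C4-2B MDVR and by 0.53 with APO in CWR22Rv1. CASP10, which lies between CFLAR and CASP8 and is a close relative of CASP8, was at 1.025, 2.26 and 1.70 FPKM in C4-2B MDVR and at no more than 0.269 FPKM in CWR22Rv1.

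BIRC5 (survivin), an IAP relative that serves cell division, fell in all 4 contrasts. It went from 100.5 FPKM to 50.7 with APO and 9.27 after VER in C4-2B MDVR, and from 71.3 to 42.5 and 31.1 FPKM in CWR22Rv1. Of the IAP genes beyond the members, BIRC5 included, BIRC5 was the 1 of 2 compared in C4-2B MDVR that fell with each inhibitor. In CWR22Rv1, 3 of 3 fell with APO, and 1 rose and 1 fell with VER. NAIP, counted as fallen with APO and risen with VER there, was at 0.0887 FPKM with DMSO, 0 with APO and 0.199 with VER. It passed the filter of 0.1 FPKM only through the VER library, so nothing is read from its changes. BIRC7 and BIRC8 were listed at 0 in all 6 libraries. The giant IAP BIRC6 fell only with APO in CWR22Rv1 among the 4 contrasts, by 0.44. Of 6 genes of the apoptosome and the antagonists of IAP proteins, 1 rose and 3 fell with APO and 2 fell with VER in C4-2B MDVR. The 1 counted as risen was XAF1, at 0 FPKM with DMSO, 0.180 with APO and 0 with VER. It passed the filter of 0.1 FPKM only through the APO library, so nothing is read from its change. Of 5 compared in CWR22Rv1, 1 rose and 1 fell with APO and 1 rose and 3 fell with VER. CYCS (cytochrome c) fell by 0.57 with APO and 0.59 after VER in C4-2B MDVR and by 0.47 with VER in CWR22Rv1. DIABLO, which frees caspases from XIAP, rose in CWR22Rv1 by 0.85 and 0.64 and was within 1.2-fold in C4-2B MDVR, at 0.08 and -0.09.

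**Figure D4:**
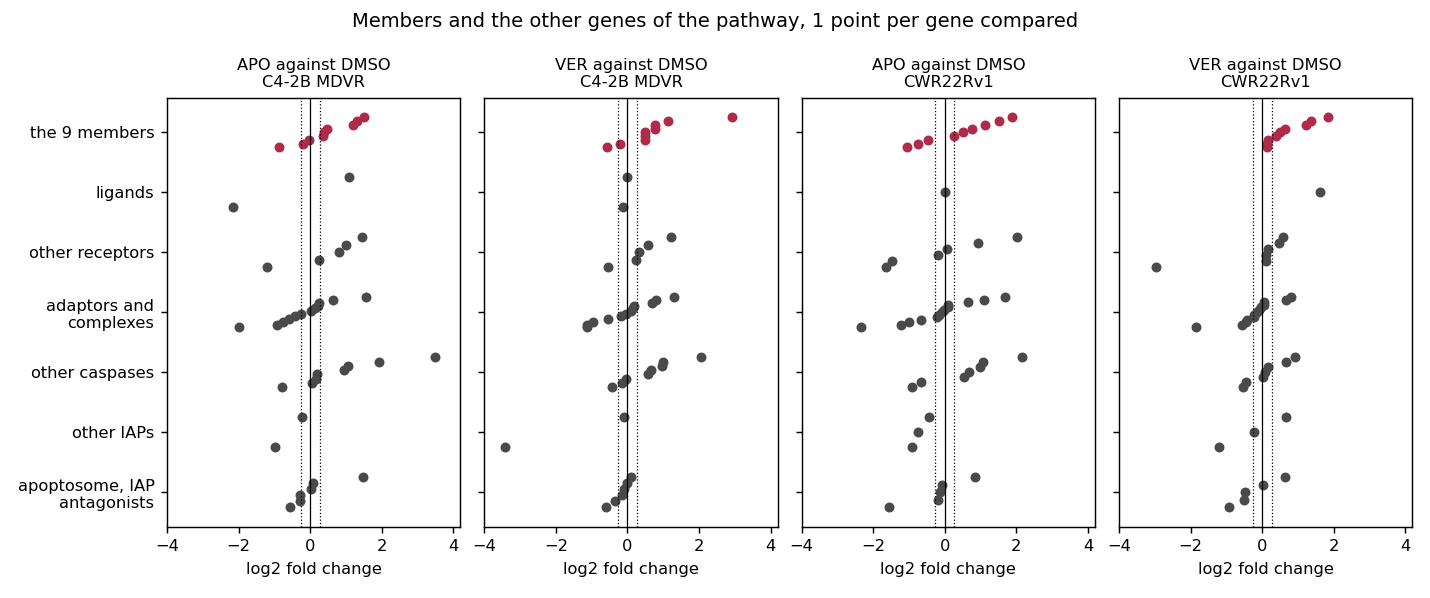
Log2 fold change of the members and of the other pathway genes in the 4 contrasts with DMSO, 1 panel per contrast and 1 point per gene compared, grouped by list, with members in red and dotted lines at 1.2-fold. The members' medians were 0.40 to 0.50 over the 4 contrasts, and those of all the other pathway genes shown were -0.09 to 0.08.

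The genes whose pattern over the 6 libraries was most like that of each member were sought over the 14241 genes that averaged 1 FPKM or more, by the root mean square difference of log2(FPKM + 0.1) after each gene was centred on its own mean. XIAP was left out, since its range was under 2-fold. The closest matches were COG5 to BIRC2 and MAP6D1 to TNFRSF10D, each at 0.06. COG5, a subunit of a Golgi tethering complex, was at 7.31, 17.1 and 13.4 FPKM in C4-2B MDVR and 11.3, 26.4 and 13.9 FPKM in CWR22Rv1. The long noncoding RNA LINC00662 was closest to TNFRSF10B, at 0.10, followed by LPXN at 0.15 and ENSG00000275964 at 0.16. ZNF644 was closest to CFLAR at 0.11, TMEM25 to BIRC3 at 0.12, MAP3K4-AS1 to CASP8 at 0.14, and ZDHHC3 to TNFRSF10A at 0.16, level with CANT1 at 0.16. FAS had no close match. BACE1-AS was nearest at 0.37, then ACTA2, which overlaps FAS, at 0.39 and DQX1 at 0.41. No other member of the 9 was among the 3 genes nearest to a member. BIRC3 averaged under 1 FPKM and was not among the genes searched, so it could not appear as a match.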

How the data were processed

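RNA-seq of 6 libraries from 2 cell lines was used, 1 library per condition. The authors aligned paired-end reads with HISAT, quantified genes with Cufflinks and normalized between libraries with Cuffnorm on GRCh38, per the labels, and deposited an FPKM value for each gene in each library. Versions, annotation release and the strand setting are not given in the sources used here. The labels describe a stranded kit with poly(A) selection and the paper another kit. Sample groups came from the titles.

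Identifiers were matched to GENCODE 29, where 57047 of 60658 were found. Differences of log2(FPKM + 0.1) were computed for genes that passed 0.1 FPKM in any library of the line. With 1 library per group no test was run and no p-value is given. Read totals are not part of the FPKM tables, so counting error is unknown. The functions were tested on simulated data. The members and gene lists were chosen with earlier results of these data known. From each of 9 lists, up to 3 genes were named, those with the largest mean absolute log2 change over the 4 contrasts with DMSO where the mean was 1 FPKM or more, and other genes were named for their role or because they were listed at or near 0, after their values were seen. Motifs were searched in RefSeq windows (GRCh38.p14). Alternatives were pseudocounts of 0.01 and 1, other filters, 2 rescalings and a 1.5-fold threshold. The settings for list medians and nearest genes and the ratios of TNFRSF10B to TNFRSF10A and BIRC2 to XIAP were added after seeing the data. Python 3.11.15, pandas 2.3.3, numpy 2.4.6 and matplotlib 3.10.9 were used.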

Additional observations from a re-analysis of the deposited data

Results flagged for a closer look

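BIRC3 moved in opposite directions with APO, by 0.46 on the log2 scale in C4-2B MDVR and -0.74 in CWR22Rv1, each past 1.2-fold. The difference was not tested, since each condition is a single library. BIRC3 was under 1 FPKM in 5 of the 6 libraries, and with a pseudocount of 1 its change in C4-2B MDVR was 0.20, within 1.2-fold.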

How the results depend on the processing

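No member's change reversed under any alternative run. Of 438 recomputed member changes, 429 kept direction and side of the threshold, 5 no longer passed it and 4 newly did. After rescaling to the same sum (TPM), 2 members fell with APO in C4-2B MDVR (42.3% of all genes did), where TNFRSF10D was at -0.34, and 1 (14.0% of all genes) was more than 2-fold lower with VER than with APO in CWR22Rv1. This rescaling shifted the median of genes over 1 FPKM for APO, in C4-2B MDVR from 0.02 to -0.12 and in CWR22Rv1 from -0.01 to 0.10, and for VER against APO in CWR22Rv1 from -0.02 to -0.20. At 1.5-fold, 3 members rose with APO in C4-2B MDVR, against 25.2% of all genes, and with VER 4 rose, against 23.7%, and 0 fell, against 22.4%. At the same threshold, VER against APO gave 3 higher in C4-2B MDVR (15.4% of all genes) and 2 lower in CWR22Rv1 (20.6%), and 3 were higher in CWR22Rv1 than in C4-2B MDVR under DMSO (31.9%). With a pseudocount of 0.01, 2 were more than 2-fold higher between the lines (27.0% of all genes), BIRC3 the added one. The ratio of BIRC3 to BIRC2 in C4-2B MDVR with DMSO was 0.0464 with 0.1 added to both. With a pseudocount of 1, BIRC3 was 0.64 higher with VER than with APO in CWR22Rv1, within 2-fold. The nearest genes were less stable, since 10 of 16 recomputed sets of 3 changed and 6 stayed the same. With a pseudocount of 1, 0 of the 3 genes nearest to FAS and to BIRC3 were the same. No paired analysis was possible because each condition has 1 library. Read totals are unknown, so what depth limits cannot be given per gene.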
